A study of Xenopus laevis with 6 samples.

Results

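Antisense long non-coding RNAs (lncRNAs) are transcripts read from the DNA strand opposite to a gene. In the testis of the African clawed frog Xenopus laevis, the deposited lncRNA table gave 1189 rows a relationship that contains the word antisense. Because a transcript was repeated for every associated transcript, these rows held 553 antisense transcripts of 483 lncRNA genes, out of 3559 lncRNA transcripts in all. Each row also named an associated gene, called the partner here. The partners were 500 of the 31598 genes of the mRNA table, and transcripts and partners formed 597 pairs. Of the pairs, 260 were described as natural antisense, 322 as intronic antisense and 15 as both, terms that the files do not define.

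The libraries came from rRNA-depleted total RNA of testes that had been flash-frozen, made with a kit that keeps strand. The atrazine group (3 libraries) had been exposed to the triazine herbicide atrazine at 100 µg/L for 180 days, the control group (3 libraries) had no exposure, and both were sampled at postnatal day 193. The labels give neither a strain nor whether a library came from 1 frog or from a pool, so p-values measure only the spread between these libraries, which may be technical. X. laevis is allotetraploid, and the suffixes L and S mark the copies of a gene on its paired chromosome sets.

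RNA from the opposite strand of a gene can overlap its transcript in part or lie wholly within an intron. Well-studied antisense lncRNAs act on chromatin or on the transcription of their partner, and complementary RNAs can pair into double-stranded RNA that dedicated proteins bind, edit or cut. Many other antisense transcripts have no known function, and HOX clusters and testis are both known for abundant antisense transcription.

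Levels are given as FPKM, fragments scaled by transcript length and library size. The estimated number of reads (from the step between low values of a library) ranged from 7360633 reads in atrazine replicate 3 to 17018688 in control replicate 1 for the mRNA table, and from 65704 to 151953 for the lncRNA table. Antisense transcripts took 7.41% to 8.95% of the lncRNA reads. Markers of meiosis, which a testis should hold, were tested in 5 rows and averaged between 5.65 and 5.84 on the log2(FPKM + 1) scale across the 6 libraries. In whole testes, fewer cells of a type and less RNA per cell cannot be told apart. Spermatid, acrosome and flagellum markers were lower in atrazine for 19 of 20 tested rows (library means 5.21 to 5.74 in atrazine and 5.61 to 6.21 in control, log2 scale), and Leydig and steroid markers for 8 of 8 (4.84 to 5.09 against 5.16 to 5.39). Red blood cell markers were lower for 5 of 6 (2.73 to 2.89 against 3.16 to 4.10), and germ cell and spermatogonia markers higher for 10 of 13 (4.90 to 5.15 against 4.64 to 5.14). Of the other lists, Sertoli markers were higher for 7 of 13, muscle for 3 of 10, kidney and ducts for 1 of 4, immune for 3 of 6 and endothelium for 2 of 3. Of all tested mRNA genes 57.3% were higher. Rows were matched by symbol alone, so that 41 spermatid, acrosome and flagellum symbols gave 20 rows. None of these rows was called, and their part in the results on antisense transcripts was not tested.

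All 597 pairs lay on opposite strands in the files. In 596 of them both rows carried the same locus, an interval that spans lncRNA and partner together, so the overlap of a given pair could not be measured. The exception was LOC108704310, paired with LOC108704244. Most partners (423) had 1 antisense transcript, 61 had 2, and 16 had at least 3. A single transcript of LOC108702522, in the HOXB cluster of chromosome 9-10S, was listed against 7 partners, the most of any. The sources used here do not say whether counting used the strand that the kit keeps. Without it, reads from a stretch of a partner gene, introns included, that its antisense transcript also covers cannot be told apart.

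Most antisense transcripts were scarce. They had a median length of 884 bases (51 to 6430), and the median of their mean levels was 0.248 FPKM, against 0.285 for all lncRNAs. Signal above 0 was listed in at least 1 library for 506 transcripts and in all 6 for 274, while 47 were listed at 0 throughout. Of the 506, 16 had less than 1 read over all libraries together, and 315 of the 553 had at least 10. A row was tested when it reached 0.5 FPKM in at least 3 libraries, which 210 antisense transcripts (38.0%) did. Those 210 had a median of 14.6 reads per library. Natural antisense transcripts passed more often (107 of 239, 44.8%) than intronic ones (90 of 285, 31.6%), and lncRNAs described as bidirectional passed more often still (65.3%); these shares were not tested against each other.

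Of the 500 partner genes 406 (81.2%) were tested, against 75.4% of all mRNA genes, with a median level of 5.97 FPKM against 8.85; neither difference was tested. Both rows were tested in 196 pairs, which held 185 antisense transcripts and 176 partners. In these the antisense transcript was usually the lower of the pair. The median log2 ratio, taken as the difference of log2(FPKM + 1) values, was -1.36 (quartiles -2.61 and -0.37). The added 1 makes this ratio smaller in size than that of plain FPKM, most where levels are low. The antisense transcript lay below its partner in all 6 libraries in 129 pairs, above it in all 6 in 19, and on different sides in different libraries in 48. Other classes also lay below their genes. Bidirectional lncRNAs did so in all 6 libraries in 174 of 201 pairs (median log2 ratio -2.39). Those described as intron sense-overlapping did so in 37 of 45 (-2.28). These differences between classes were not tested. The step between low values of a library, taken as 1 read, is the same in both tables. Whether FPKM was scaled alike in both is not known here, so levels set across them are a description.

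**Figure D1:**
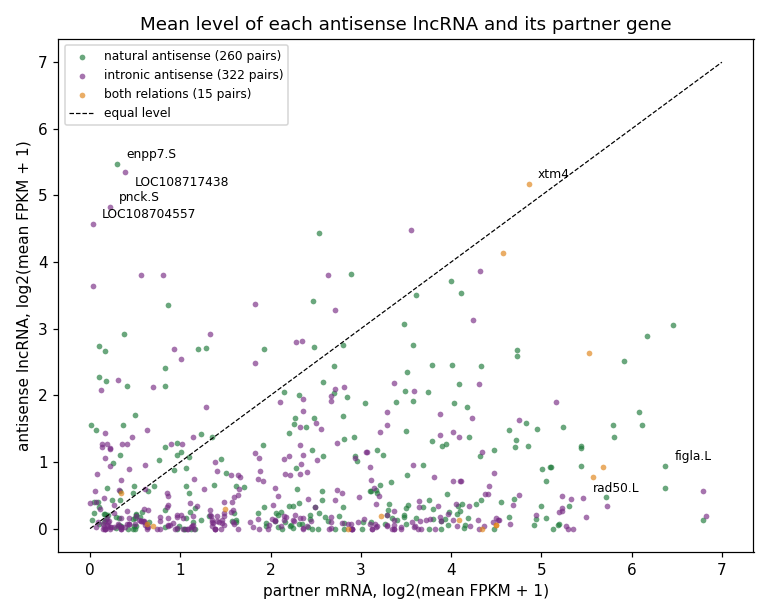
Mean level over the 6 libraries of the antisense lncRNA (vertical) and of its partner mRNA (horizontal) in each of the 597 pairs, both as log2(mean FPKM + 1), coloured by the relation that the files give, with some partners named (LOC108704557 is the LAMTOR5-like gene). Most points lie under the dashed line of equal level, and a few antisense lncRNAs at the upper left exceed partners that were close to 0.

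Across pairs the level of an antisense transcript said little about that of its partner. Within a library, Spearman's rho over the 196 pairs lay between 0.050 and 0.119, a description over pairs that share their library. The correlation of a pair over the 6 libraries had a median Pearson r of 0.093 and was above 0 in 108 of 196 pairs. For bidirectional lncRNAs and their associated genes the median was 0.153 (201 pairs) and for intron sense-overlapping ones 0.203 (45 pairs), differences that were not tested.

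A small set of antisense transcripts was abundant: 17 had a mean above 10 FPKM, 6 natural, 9 intronic and 2 both. In 12 of the 17 every partner was lower than the antisense transcript, and in 6 every partner was under 0.5 FPKM. The highest was LOC108702715, natural antisense to LOC108702714, which the annotation of assembly v10.1 names enpp7.S, a member of the family of ectonucleotide pyrophosphatases and phosphodiesterases. The antisense transcript stood at 45.8, 32.7 and 53.0 FPKM in atrazine replicates 1 to 3 and at 41.8, 45.0 and 42.6 FPKM in the controls. The partner lay between 0.126 and 0.377 FPKM in the same libraries, well under every value of the antisense transcript.

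LOC108717369, intronic antisense to LOC108717438, a CUB and sushi domain-containing protein 1-like gene, had 42.9, 45.3 and 33.0 FPKM in atrazine and 43.8, 38.7 and 35.6 FPKM in control. Its partner was between 0.217 and 0.426 FPKM. LOC108699992 lay in antisense to pnck.S (LOC108699989), a calcium/calmodulin-dependent protein kinase gene, at 30.5, 36.1 and 25.6 FPKM in atrazine and 30.9, 17.2 and 23.4 FPKM in control, with the partner at 0 to 0.353 FPKM. The groups overlapped in both antisense transcripts.

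An exception among the 5 highest was LOC108712995 (both relations), whose partner xtm4, a tropomyosin gene, was itself abundant. The antisense transcript had 41.1, 29.6 and 24.2 FPKM in atrazine and 31.5, 44.9 and 38.6 FPKM in control, beside 24.1 to 30.5 FPKM for xtm4. The last of the 5, LOC108704559, was intronic antisense to a gene for a LAMTOR5-like protein, a subunit of the Ragulator complex that anchors nutrient signalling at the lysosome. It had 15.1, 16.2 and 21.6 FPKM in atrazine and 20.2, 32.1 and 31.8 FPKM in control, and its partner was listed at 0 in 5 libraries and at 0.134 FPKM in atrazine replicate 1. Its log2 fold change was -0.63 ± 0.25 SE (limma adjusted p = 0.692), although atrazine replicate 3 was above control replicate 1. No other of the 17 had an unadjusted p under 0.05, and their log2 fold changes ran from -0.83 to 0.38.

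**Figure D2:**
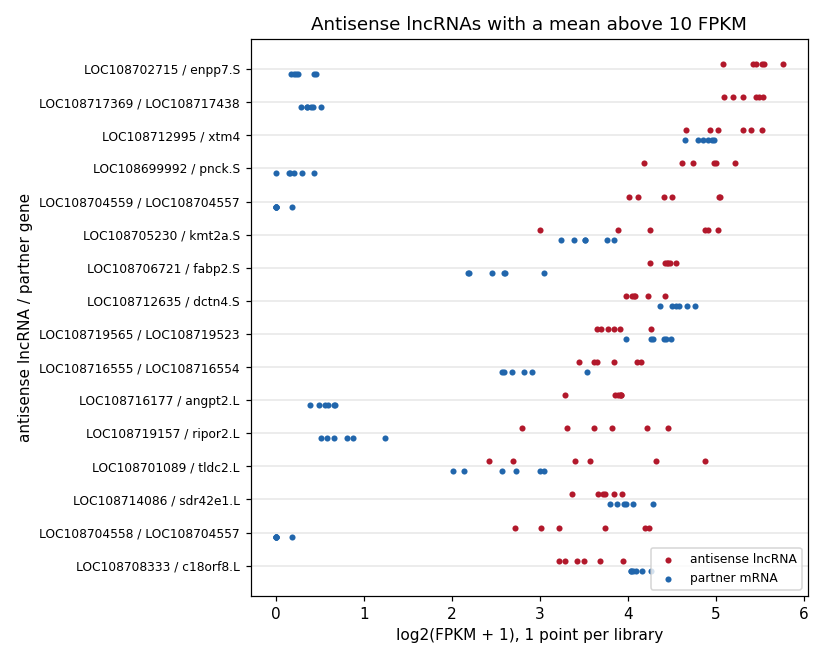
Level of 16 of the 17 antisense lncRNAs with a mean above 10 FPKM (red) and of their partner mRNAs (blue) as log2(FPKM + 1), with 1 point for each of the 6 libraries. The partners of LOC108702715, LOC108717369, LOC108699992, LOC108704559 and LOC108704558 sit near 0 while the antisense lncRNAs do not.

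Pairs with both rows tested were ranked by the mean over libraries of the log2 ratio of antisense to partner, each as FPKM + 1. Among them, the highest ratios were at angpt2.L, ripor2.L and LOC108713902. At angpt2.L (LOC108716902), a gene for an angiopoietin, a ligand of endothelial receptors, the antisense transcript LOC108716177 had 13.99, 13.8 and 14.2 FPKM in atrazine and 14.1, 8.74 and 13.4 FPKM in control, and the gene 0.305 to 0.592 FPKM. The mean log2 ratio there was 3.24, which is smaller than that of plain FPKM because of the added 1. LOC108719157, antisense to ripor2.L, varied more, from 5.93 FPKM in atrazine replicate 2 to 20.9 FPKM in control replicate 2, with a mean log2 ratio of 2.92. At LOC108713902, which encodes a G protein gamma subunit, the ratio was 2.52.

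By the same ratio of FPKM + 1, the lowest were at figla.L, rad50.L and fbxo9.S, an order that depends on the added 1. Figla.L, which encodes a transcription factor of oocytes that drives egg coat genes, was listed at 102, 65.5 and 74.6 FPKM in atrazine and 91.9, 75.8 and 81.5 FPKM in control. Its natural antisense transcript LOC108711535 had 1.85, 0.159 and 0.662 FPKM in atrazine and 1.16, 0.749 and 0.910 FPKM in control. Both were highest in atrazine replicate 1 and lowest in atrazine replicate 2, and the mean log2 ratio was -5.47. The ratio was -5.02 at rad50.L and -4.83 at fbxo9.S (LOC108718017), an F-box gene whose level lay between 39.9 and 52.9 FPKM.

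No antisense transcript was called in the comparison of atrazine with control. The test was limma on log2(FPKM + 1) over all 1432 tested lncRNA transcripts, of which 0% were called at an adjusted p under 0.05; the smallest adjusted p of an antisense transcript was 0.385. An unadjusted p under 0.05 was reached by 12 of 210 antisense transcripts (5.71%), 5 higher and 7 lower in atrazine, against 6.77% of all tested lncRNAs (3.42% higher and 3.35% lower). The groups did not overlap in 20 (14 higher and 6 lower), which is 9.52% against 12.6% of all tested lncRNAs (7.75% higher and 4.82% lower). Neither share was above the background. Of the 210, 105 had a higher and 105 a lower mean, with a median log2 fold change of -0.00081 (limits -0.91 and 1.42) against 0.05 for all lncRNAs, and the median standard error was 0.27. By class, 4 of 107 natural and 8 of 90 intronic antisense transcripts had a p under 0.05, a difference that was not tested.

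No partner gene was called either. Of 406 tested, none was called by limma over the 23824 tested mRNA genes, of which 0% were called, and the smallest adjusted p of a partner was 0.693. An unadjusted p under 0.05 was reached by 20 (4.93%), 15 higher and 5 lower, against 5.92% of all tested mRNA genes (3.32% higher and 2.59% lower). The groups did not overlap in 43 (31 higher and 12 lower), 10.6% against 11.3% of all (6.63% higher and 4.66% lower). The median log2 fold change was 0.06 against 0.04 for all tested mRNA genes. The count at an unadjusted p under 0.05 depended on single libraries, as did the share of all mRNA genes. It was 70 (17.2%) without control replicate 1, when 19.0% of all mRNA genes also passed. Without atrazine replicate 2, control replicate 2 and control replicate 3 it was 7, 10 and 9 (1.72%, 2.46% and 2.22%), against 2.82%, 3.33% and 3.30% of all mRNA genes.

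**Figure D3:**
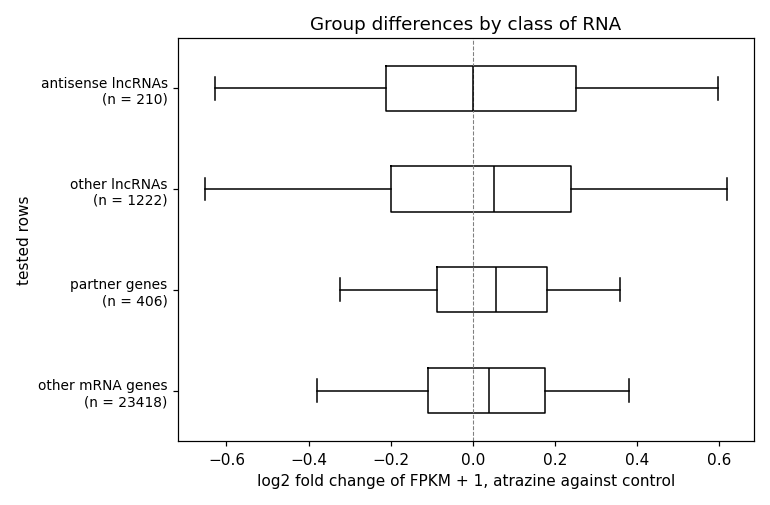
Log2 fold change of FPKM + 1 between atrazine and control for tested antisense lncRNAs, other lncRNAs, partner genes and other mRNA genes. Boxes span the quartiles with the median as a line, and whiskers reach the 5th and 95th percentiles. All 4 medians lie close to 0, and both lncRNA classes spread more widely than the mRNA classes.

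The balance within a pair was tested directly as the group difference of the log2 ratio of antisense to partner, over all 451 lncRNA and gene pairs with both rows tested. None was called (smallest limma adjusted p of an antisense pair 0.410), and 13 of 196 antisense pairs (6.63%) had an unadjusted p under 0.05 against 5.76% of all pairs. In no pair did both rows have a p under 0.05 in their own tables.

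The antisense transcripts with the smallest p and no overlap between groups are described next, 5 in each direction, although none passed. Of these 10, 4 reached 0.5 FPKM in the 3 libraries of 1 group and in none of the other (LOC108720048, LOC108702687, LOC108714678 and LOC108710921). They were tested only because they are high in that group, so their p and their separation follow in part from the filter and are given as a description. They are also 4 of the 12 antisense transcripts with an unadjusted p under 0.05 and 4 of the 20 without overlap. The first was LOC108711999, intronic antisense to LOC108711853 on chromosome 1L (locus 86347258 to 86739868), a gene for a receptor-type tyrosine phosphatase S-like protein of the family that acts in cell adhesion and axon growth. It had 1.37, 1.95 and 2.03 FPKM in atrazine and 0.593, 0.314 and 0 FPKM in control, from 3 to 6 reads and 0 to 2 reads per library. Its log2 fold change was 1.11 ± 0.24 SE (limma adjusted p = 0.385). The partner stood at 4.21, 5.04 and 4.99 FPKM in atrazine and 4.64, 4.91 and 4.38 FPKM in control, and its groups overlapped.

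LOC108718942 was natural antisense to dync1li1.L on chromosome 6L (locus 48216557 to 48235104), a light intermediate chain of the cytoplasmic dynein motor. It had 5.002, 7.35 and 5.18 FPKM in atrazine and 3.16, 3.03 and 3.12 FPKM in control, on 20 to 59 reads. The 3 control libraries lay closely together and under every atrazine library (log2 fold change 0.72 ± 0.21 SE, limma adjusted p = 0.612). Dync1li1.L itself had a log2 fold change of 0.08 ± 0.20 SE. A like arrangement was seen for LOC108697415, natural antisense to taf5.S (LOC108697414), a subunit of the general transcription factor TFIID. It had 5.50, 3.07 and 5.73 FPKM in atrazine and 2.23, 2.36 and 2.14 FPKM in control (log2 fold change 0.79 ± 0.25 SE, limma adjusted p = 0.670), while taf5.S lay between 12.6 and 18.5 FPKM with overlapping groups.

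The other two higher transcripts were close to the detection limit. LOC108720048, antisense to cdh18.S (LOC108720047), a cadherin gene, had 0.547, 0.518 and 0.717 FPKM in atrazine and was listed at 0 in control replicates 1 and 3, with 0.320 FPKM in control replicate 2. LOC108702687 had 0.821, 0.683 and 0.701 FPKM in atrazine and 0.477 FPKM in control replicate 1, and under 1 read in the other control libraries. Its partner LOC108702684, a serine/threonine-protein kinase 3-like gene, was at 0.349, 0.661 and 0.515 FPKM in atrazine and 0.823, 1.76 and 0.747 FPKM in control. The partner's log2 fold change of -0.46 ± 0.20 SE was the lowest among the 9 tested partners of these 10 transcripts, for which the range was -0.46 to 0.26.

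Among the lower ones, LOC108714678 was intronic antisense to pim1.L, a serine/threonine kinase and proto-oncogene, on chromosome 4L (locus 132230048 to 132240387). It was listed at 0 in atrazine replicates 2 and 3 and at 0.333 FPKM, 1 read, in atrazine replicate 1, against 0.863, 1.22 and 0.735 FPKM in control, 2 to 4 reads. Pim1.L had 7.46, 9.79 and 8.01 FPKM in atrazine and 7.88, 7.07 and 7.05 FPKM in control.

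LOC108710921 was intronic antisense to rad50.L on chromosome 3L (locus 30032369 to 30273359), a component of the complex that senses DNA double-strand breaks. It had 0.102, 0.257 and 0.0667 FPKM in atrazine and 0.668, 0.531 and 0.648 FPKM in control, which was 1 to 8 reads against 18 to 23. Only the control libraries reached 0.5 FPKM, and the difference was not called (log2 fold change -0.50 ± 0.15 SE, limma adjusted p = 0.612). Rad50.L stood at 47.6, 44.6 and 36.3 FPKM in atrazine and 40.5, 42.4 and 47.8 FPKM in control, a log2 fold change of -0.03 ± 0.14 SE.

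LOC108704310, paired with the gene of the oocyte zinc finger protein XlCOF22, had 2.17, 0.857 and 1.43 FPKM in atrazine and 3.43, 2.91 and 3.34 FPKM in control. LOC108698711, antisense to the tetratricopeptide repeat gene ttc7b.L, had 1.05, 0.872 and 1.55 FPKM in atrazine and 1.92, 2.44 and 2.55 FPKM in control. LOC108705341 rested on 1 read in each atrazine library and 2 to 6 in control, with a log2 fold change of -0.87 that was -0.53 without control replicate 1. Their partners all had log2 fold changes between 0.01 and 0.26. Of the 10 transcripts, 4 had fewer than 10 reads in every library.

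**Figure D4:**
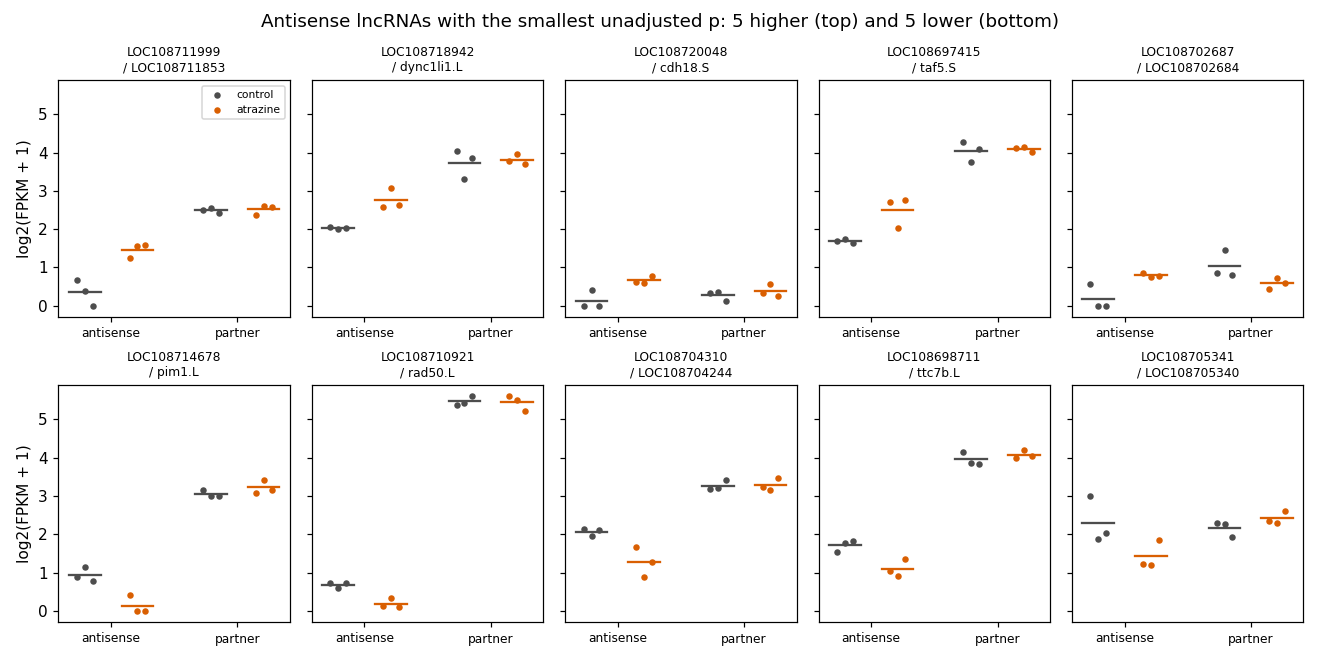
Level as log2(FPKM + 1) of the 10 antisense lncRNAs with the smallest unadjusted p and no overlap between groups, and of their partners, with 1 point per library (3 control in grey, 3 atrazine in orange) and bars at the group means. The antisense points separate by group, as they were chosen to, and the partner points overlap in all panels except LOC108702684.

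Partners were named by the same rule, with a mean of at least 1 FPKM. Fgf22.L (LOC108713205), a fibroblast growth factor gene, had 3.42, 2.72 and 2.69 FPKM in atrazine and 1.57, 1.58 and 1.53 FPKM in control. It had the smallest p among partners, and was not called (log2 fold change 0.62 ± 0.14 SE, limma adjusted p = 0.693). Its antisense transcript LOC108713220 lay between 0.327 and 0.733 FPKM and was not tested. Nucb2.S (MGC83153), a calcium-binding nucleobindin gene, had 10.3, 12.8 and 9.95 FPKM in atrazine and 16.7, 22.1 and 16.2 FPKM in control (log2 fold change -0.68 ± 0.16 SE, limma adjusted p = 0.693), with at most 1 read of its antisense transcript in any library.

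Other partners named by the rule follow. Ptprd.S, a receptor tyrosine phosphatase, had 3.94, 3.86 and 3.14 FPKM in atrazine and 2.81, 2.14 and 2.41 FPKM in control. Efna5.S (LOC108707220), an ephrin ligand, had 2.06, 2.54 and 2.78 FPKM in atrazine and 1.70, 0.964 and 1.70 FPKM in control. The gene named crhr1.1.S (LOC108702557), a receptor of corticotropin-releasing hormone, had 3.06, 3.34 and 4.005 FPKM in atrazine and 5.41, 6.57 and 4.51 FPKM in control, and its antisense transcript was listed at 0 throughout. The others were LOC108708151 (synaptotagmin-2-like) and p3h3.S (LOC108697338), both with higher means in atrazine, and LOC108716554 (a spectrin beta chain), mif.L (a cytokine) and LOC108708561 (LBH-like), all with lower means. The log2 fold change of p3h3.S was 0.51 and 0.31 without control replicate 2, and that of LOC108716554 was -0.47 and -0.25 without control replicate 3. At an adjusted p of 0.693 none of these passed.

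Some groups of partners, picked from the list of names, share a known role. The hedgehog pathway patterns tissue through a secreted ligand, and desert hedgehog is its form made by Sertoli cells in the testis. Of its genes, dhh.S (the ligand), ptch1.L (LOC108714691, its receptor), hhip.L (a decoy that binds the ligand) and hhat.L (LOC108716437, the enzyme that adds a fatty acid to it) were partners. Dhh.S had 6.49, 6.32 and 7.02 FPKM in atrazine and 5.39, 6.12 and 4.63 FPKM in control. Its antisense transcript LOC108709818 was as abundant, at 7.55, 6.51 and 5.43 FPKM in atrazine and 5.67, 5.76 and 3.73 FPKM in control. The groups did not overlap for dhh.S and did for its antisense transcript, and neither was called (log2 fold changes 0.26 ± 0.14 SE and 0.32 ± 0.23 SE, limma adjusted p = 0.693 and 0.851). A second natural antisense transcript of dhh.S, LOC108709819, had 0.560 to 3.28 FPKM. At ptch1.L the antisense transcript LOC108714703 had 1.36, 1.59 and 1.33 FPKM in atrazine and 1.22, 1.09 and 0.683 FPKM in control, under a gene level of 6.63 to 9.15 FPKM. The transcript at hhat.L was listed at 0 throughout, and that at hhip.L rested on 0 to 6 reads.

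Gonad and germ cell genes gave 13 partners, of which 12 were tested and 8 antisense transcripts with them. The groups share members: dhh.S is counted here again, and lhx9.L both here and among the developmental transcription factors below. Nr5a1.L, the steroidogenic factor that switches on steroid enzymes in Leydig cells, had 17.9997, 18.3 and 19.2 FPKM in atrazine and 19.1, 23.9 and 23.4 FPKM in control. Its intronic antisense transcript LOC108698234 had 0.359, 1.02 and 0.848 FPKM in atrazine and 0.493, 0.314 and 0.307 FPKM in control, passed 0.5 FPKM in only 2 libraries and was not tested. Prlr.S, the prolactin receptor, had a p of 0.0407 (log2 fold change 0.40 ± 0.17 SE, limma adjusted p = 0.693) and an antisense transcript listed at 0 throughout. Spag6.L, a protein of the sperm flagellum, stood at 24.9 to 40.2 FPKM, and its natural antisense transcript at 0.492 to 1.43 FPKM. Lin28b.S, an RNA-binding protein of germ cells, lay between 2.195 and 5.47 FPKM with antisense at 0.673 to 0.871 FPKM. At tex30.L (LOC108708467) the order was turned, with 6.91 to 11.5 FPKM of intronic antisense RNA over 1.94 to 2.86 FPKM of the gene.

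Repair and chromosome genes gave 10 partners, all tested, with 4 higher, 6 lower and none called. Mlh3.L, which acts in meiotic crossing over, lay between 12.7 and 15.04 FPKM with antisense at 0.892 to 2.12 FPKM. Smc3.S (LOC432330), a subunit of the cohesin ring, had 50.7 to 59.2 FPKM over an antisense level of 0.953 to 2.69 FPKM.

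HOX genes, which set position along the body axis, gave 12 partners with 7 antisense transcripts, and both were scarce. The partners' means ran from 0.0955 to 0.859 FPKM. Of the 7 transcripts only that of LOC108702522 was tested, at 1.49, 1.74 and 2.09 FPKM in atrazine and 1.52, 0.496 and 1.06 FPKM in control. Its HOX partners hoxb1.S, hoxb2.S, hoxb4.S, hoxb5.S and hoxb6.S had means of 0.136, 0.332, 0.0955, 0.281 and 0.859 FPKM. Its mean of 1.40 FPKM was above each of these, while skap1.S, also listed as a partner, had 14.4 FPKM. The group difference of the antisense transcript was not called (log2 fold change 0.48 ± 0.26 SE, limma adjusted p = 0.784). Hoxa3.S had 0.581, 0.602 and 1.09 FPKM in atrazine and 0.357, 0.313 and 0.366 FPKM in control (limma adjusted p = 0.693). It was tested only because its atrazine libraries reached 0.5 FPKM, and it was the 1 tested partner that did so in 1 group alone.

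Of the other homeobox and developmental transcription factors, 20 were partners, with 15 tested, 8 higher and 7 lower. Nr2f2, an orphan nuclear receptor of mesenchymal cells, carried intronic antisense RNA on both copies. On the L copy the most abundant of 3 transcripts had 1.75, 3.29 and 1.37 FPKM in atrazine and 1.71, 1.72 and 1.74 FPKM in control, with nr2f2.L at 6.27, 12.6 and 7.75 FPKM and at 7.95, 9.12 and 8.73 FPKM. Gene and antisense transcript shared their highest library, atrazine replicate 2. On the S copy (LOC108712825) the antisense transcript lay between 0.858 and 1.60 FPKM and the gene between 5.68 and 10.2 FPKM.

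With the names of assembly v10.1, 14 symbols had an antisense transcript on both the L and the S copy, among them cap2, hoxa3, hoxb5, hoxb6, hoxc6, lpar1, nr2f2, pnck, ripor2 and vmp1. Tested antisense transcripts were on both copies for 4 of the 14, on 1 copy for 6 and on neither for 4. The level of antisense RNA at the copies could differ widely. It averaged 27.3 FPKM at pnck.S (the higher of 2 transcripts) and 1.04 FPKM at pnck.L, and 12.9 FPKM at ripor2.L and 0.0764 FPKM at ripor2.S. The relation differed too, intronic antisense at pnck.S and ripor2.L and natural antisense at pnck.L and ripor2.S. Whether these transcripts are copies of the same RNA was not tested. Among 22 genes with symbols in the files, both copies tested and antisense RNA at 1 of them, the copy with it was the higher in 8. Reads that fit both copies may have been split between them, and how they were counted is not known here.

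The partners named last were chosen for their number of antisense transcripts, 4 at diaph2.L (LOC108698412), glp2r.L (LOC108701188), dus2.L (LOC108713981) and LOC108719524 and 3 at LOC100145531.L. The dus2.L transcripts, all of lncRNA gene LOC108713982, included a pair of alternative transcripts with opposite extremes. One transcript had 3.22, 3.76 and 0.723 FPKM in atrazine and 3.04, 3.97 and 3.11 FPKM in control, another 2.905, 3.17 and 5.16 FPKM and 1.93, 0.385 and 2.96 FPKM. The first was lowest in atrazine replicate 3, where the second was highest, and the first was highest in control replicate 2 among controls, where the second was lowest. The remaining transcripts were under 1 read in every library, except one with 12.8 reads in control replicate 1. How reads were shared between transcripts of a gene is not known here. At LOC100145531.L, a gene for histone H1B with 27.8, 53.3 and 59.9 FPKM in atrazine and 36.7, 20.9 and 20.6 FPKM in control, each of the 3 antisense transcripts rested on 0 to 6 reads per library.

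Circular RNAs, closed rings read through back-splice junctions, were listed for 68.5% of tested partner genes and 62.0% of all tested mRNA genes, a difference that was not tested. Circular RNA rows of the antisense catalogue fell on 5.6% of partners and 3.55% of all mRNA genes.

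Proteins that bind, edit or cut double-stranded and small RNA were represented by 21 tested rows, none of them a partner. These rows were matched by symbol alone to a list of 36 symbols, so any gene under a LOC name is left out. The piwil genes were among the listed symbols without a row. Of these 15 were higher (71.4%, against 57.3% of all tested mRNA genes) and 6 lower, and none was called. An unadjusted p under 0.05 was reached by 2 (9.52%, against 5.92% of all tested mRNA genes), and the median log2 fold change was 0.07 against 0.04 for all mRNA genes. The count at an unadjusted p under 0.05 was 0 without atrazine replicate 2 or atrazine replicate 3 and 1 without control replicate 3. Stau1.L, which binds double-stranded stretches of mRNA, had 12.05, 21.3 and 17.9 FPKM in atrazine and 9.86, 11.3 and 12.2 FPKM in control. Dhx58.L, a helicase that senses viral RNA, had 5.05, 4.18 and 3.92 FPKM in atrazine and 6.36, 5.30 and 6.84 FPKM in control. Stau1.L overlapped between groups, dhx58.L did not, and both had a limma adjusted p of 0.693. Among the abundant rows of the list were ilf2.L at 195 to 295 FPKM and adad1.L, a testis adenosine deaminase-domain protein, at 72.1 to 135 FPKM. Strbp.L had a higher mean in atrazine (log2 fold change 0.34), and prkra.L and stau2.L had lower ones (-0.15 for both), none of them called. Each rested on single libraries: strbp.L was at 0.12 without control replicate 2 and 0.53 without control replicate 1, prkra.L at -0.06 without atrazine replicate 2 and stau2.L at -0.05 without atrazine replicate 3.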

How the data were processed

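FPKM per mRNA gene and per lncRNA transcript were deposited by the authors, per the file headers, in 6 libraries (3 atrazine, 3 control, grouped by sample title). Beside them the authors deposited a signal headed as counts that is not whole. It looks like reads divided by 1 factor per library: in the mRNA table at least 98.98% of values, and in the lncRNA table at least 85.38%, are whole multiples of 1 step at a tolerance of 0.02. The step is the same in both tables. Depth was estimated from it, and no count model was run. The circRNA table holds counts of back-splice junction reads, per the file headers, and was used only to see which genes have a row; its 6 normalized columns were not used. CASAVA 1.8, Bowtie2 and HISAT2 appear in the submitters' processing notes, without a role. The sources used here name no quantifier, build or annotation release. Positions are printed as deposited, counted from 1.

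The lncRNA table repeats a transcript for each associated transcript, 1093 repeated rows, and each transcript was kept once. A row was tested if 3 or more libraries reached 0.5 FPKM. Tests used limma 3.58.1 (R 4.3.3) on log2(FPKM + 1), with the eBayes trend option on. Because of the added 1, fold changes of low rows are understated. Group was the only term, tests were two-sided, and Benjamini-Hochberg adjustment ran within each table at a threshold of 0.05. The ratio of antisense to partner was tested in the same way and was added after the shared step had been seen. The scripts were tested on simulated data. Names for LOC genes come from assembly v10.1, in which 467 of 500 partners matched, and no sequences were used here.

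Members, lists and groups of partners were chosen with earlier results of these data known. Named transcripts and partners are the 5 in each direction with the smallest p and no overlap between groups, the 5 most abundant antisense transcripts, the 3 highest and 3 lowest ratios, partners in a marker list, partners with the most antisense transcripts, and rows of the double-stranded RNA list by p and level. Other pairs were named after their values were seen. Some genes that the rule names are not reported here. Alternatives were another pseudocount (0.1), no filter, a filter of 1 FPKM, median-of-ratios scaling, leaving out each library, a replicate block and eBayes without a trend.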

Additional observations from a re-analysis of the deposited data

How the results depend on the processing

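No antisense transcript, partner gene, ratio or row of the double-stranded RNA list was called at an adjusted p under 0.05 in any alternative run. For the ratio, the only alternatives run were leaving out each library and a replicate block. Of the other lncRNA classes, 1 was called without control replicate 1 and 0 otherwise. The 26 named fold changes kept their direction in all 308 values under an alternative, and none was called. However, 7 of the 26 moved by over 1.5 times when 1 library was left out. The named antisense transcripts and partners were chosen for groups that do not overlap. Leaving out a library or changing the pseudocount or filter therefore could not reverse their direction. A replicate block and eBayes without a trend leave every fold change unchanged, so they could not reverse one either. The 57 named levels were also recomputed without each library. Dropping 1 library cannot move such a mean by 1 SD, so that limit decides nothing. Counts at an unadjusted p under 0.05 also moved, and the number of rows tested changed with the filter. For antisense transcripts (12 of 210 rows in the report) the count was 23 of 506 with no filter on low values and 7 of 152 with a filter of 1 FPKM. It was 26 of 435 with repeated rows kept as deposited, and 10 to 16 of 210 when a library was left out. For partners (20) it ran from 7 to 70 when a library was left out, while the share of all mRNA genes ran from 2.82% to 19.0%. For the double-stranded RNA list (2) it ran from 0 to 2 in the same runs. For the other lncRNA classes (85 of 1222) it was 154 of 2744 with no filter and 54 of 882 with a filter of 1 FPKM. With a library left out it was 56 to 103 of 1222. The ratio count (13) lay between 9 and 16. The median log2 fold change of antisense transcripts was 0.0332 with a filter of 1 FPKM, -0.0535 with median-of-ratios scaling and 0.0326 with transcripts summed per lncRNA gene, and -0.0203 to 0.0271 when a library was left out. For the other lncRNA classes it was 0.0724 with a pseudocount of 0.1, 0.00073 with no filter, 0.00074 with median-of-ratios scaling, and 0.0295 to 0.0576 when a library was left out. For partners (0.0554) it was 0.0199 with median-of-ratios scaling and 0.0324 to 0.0696 when a library was left out, and for the double-stranded RNA list (0.0724) 0.0281 to 0.140. The mean Spearman rho of levels within libraries was 0.090 in FPKM and 0.022 in the signal headed counts. Over all tested rows, median-of-ratios scaling moved log2 fold changes by a median of -0.048 for lncRNAs and -0.040 for mRNAs. The cause of the moves under the alternatives was not tested. The correlations of deviations from the group means between same-numbered libraries were 0.03, -0.35 and -0.04 for mRNAs and -0.16, -0.20 and -0.07 for lncRNAs. Differently numbered libraries were not compared, so these values cannot settle whether replicate numbers pair the libraries. With a replicate block 12 antisense transcripts and 14 partners had an unadjusted p under 0.05 and 0 were called. Antisense rows had a median of 14.6 reads per library and a median standard error of 0.27 on the log2 scale, all lncRNAs 17.7 reads and 0.27, and partners a standard error of 0.16.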
